A study of Mus musculus with 16 samples.

Results

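The clonal lines of 2 fibroblast families, MEF-1 and MEF-2, were compared for DNA methylation over regions and genes. Members were chosen by the labels, as the 7 subclonal populations 1-1 to 1-7 against the 7 subclonal populations 2-1 to 2-7, which are 14 of the 16 libraries of the series. The other 2 libraries are the parental cultures, and their values are given beside the clonal ones as a check that took no part in the calls. Of the 1203687 autosomal CpGs in the series table, 850979 fell into 70340 runs, where a run is 5 or more measured CpGs with at most 100 bp between neighbours. Levels were also averaged over 11722 promoter windows of 10522 protein-coding genes and over 13362 gene bodies.

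Both families are immortalised mouse embryonic fibroblasts (MEFs), cells of the connective tissue that can be grown from a dissociated embryo. They came from a pair of E13.5 C57BL/6J embryos and were immortalised by serial passaging through crisis, with no transgene and no treatment. According to the study the embryos were brother (MEF-1) and sister (MEF-2). Each clonal line was grown from a single sorted cell. Methylation was measured by target capture bisulfite sequencing (tcBS-seq), in which chosen regions are pulled out with RNA probes and unmethylated cytosines are then converted. The 7 lines of a family are replicates of 1 parental culture, not of an embryo, so the p-values describe the difference between these cultures. Embryo, sex and culture history all change together with the family and cannot be told apart. Batches of library preparation are not named in the sample titles.

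In mammals, a methyl group can be carried by the cytosine of a CpG, and the pattern is copied to the new strand when DNA replicates. Promoters rich in CpGs are mostly free of methylation in all tissues, whereas gene bodies, intergenic sequence and promoters poor in CpGs are often methylated. Genes for the transcription factors of embryonic patterning, such as the Hox genes, lie in wide CpG-rich domains whose methylation varies between cell types and in cultured cells.

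A set of 6 of the runs with the largest differences is printed first, because the data rest on a few CpGs that sit close together. They were read from the GRCm38 (mm10) reference and are shown 5′ to 3′ on the plus strand, with the measured CpGs in capitals. CpGs in lower case were not in the series table. The first 3 were methylated in MEF-1 and nearly free of methylation in MEF-2, and the last 3 were methylated in MEF-2 and low on average in MEF-1.
Ahi1, intron, chr10:20954328-20954504: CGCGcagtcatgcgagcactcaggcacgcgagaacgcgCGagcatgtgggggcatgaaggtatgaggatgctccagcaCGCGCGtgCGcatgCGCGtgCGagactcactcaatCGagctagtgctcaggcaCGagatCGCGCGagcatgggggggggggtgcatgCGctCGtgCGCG
Gapvd1, intergenic, chr2:34671663-34671807: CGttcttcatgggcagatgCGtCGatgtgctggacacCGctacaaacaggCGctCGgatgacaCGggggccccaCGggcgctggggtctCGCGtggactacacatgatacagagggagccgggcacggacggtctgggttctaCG
Runx1, intron, chr16:92698877-92698891: CGcccCGaCGgCGCG
Cdh4, intron, chr2:179539925-179540067: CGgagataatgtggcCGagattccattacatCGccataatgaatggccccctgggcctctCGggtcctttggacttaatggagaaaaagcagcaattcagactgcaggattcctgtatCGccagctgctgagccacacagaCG
Sim2, intron, chr16:94094636-94094738: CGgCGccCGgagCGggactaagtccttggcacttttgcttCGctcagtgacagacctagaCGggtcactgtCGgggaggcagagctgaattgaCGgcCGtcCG
Nkx6-1, intron, chr5:101659788-101659946: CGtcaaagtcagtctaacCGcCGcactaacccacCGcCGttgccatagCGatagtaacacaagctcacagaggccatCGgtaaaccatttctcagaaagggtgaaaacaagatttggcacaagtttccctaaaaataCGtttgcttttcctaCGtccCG
In Ahi1, the family mean of the 19 measured CpGs lay between 81.4 and 99.5% in MEF-1 and between 0 and 8.86% in MEF-2. In Sim2, the 10 measured CpGs lay between 2.11 and 7.53% in MEF-1 and between 39.7 and 99.1% in MEF-2. In Nkx6-1 the CpGs differed more among themselves, from 3.83 to 46.9% in MEF-1 and from 42.4 to 97.6% in MEF-2. The CpG ranges of the families were separate in Ahi1 and Sim2 and overlapped in Nkx6-1.

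Over the CpGs compared, the clonal libraries held between 38485592 and 53761783 methylation calls (1 call is 1 read over 1 CpG), with a median of 26 to 37 reads per CpG. The mean level over all runs was 47.6 to 48.6% in the MEF-1 lines and 45.5 to 47.0% in the MEF-2 lines, so MEF-1 lines were slightly more methylated throughout. The fibroblast label was checked on promoter windows of marker genes. Of 11 windows of fibroblast markers, 7 were under 20% in both families, against 5 of 17 windows of blood markers and 2 of 12 of endothelial markers, while 8 of 16 windows of epithelial markers were also under 20%. A low promoter level is not a measure of expression. The mean over the fibroblast windows was 19.7 to 22.2% in the MEF-1 lines and 13.9 to 16.6% in the MEF-2 lines.

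Many regions differed between the families. A run was called where the limma test of the 7 against 7 line levels passed an adjusted p of 0.05 and the family means differed by at least 20 percentage points. By this rule 7316 of 70340 runs were called, which is 10.4% of them. Of these, 4637 (6.59% of all runs) were higher in MEF-1 and 2679 (3.81% of all runs) were higher in MEF-2, so that 63.4% of called runs were higher in MEF-1, whereas with the medians of all lines set equal the calls were 2973 and 4227 and 41.3% were higher in MEF-1. That scaling took 4.31 points off the difference of every run, whereas the median run differed by 0.610 points as measured, and left the median run at −3.70 points. With the means of the lines set equal, which took off 1.61 points, 3944 and 3200 runs were called and 55.2% were higher in MEF-1. The majority was higher in MEF-1 as measured and with means set equal, and directions of single regions are given below as measured.

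The called runs had a median difference of 26.5 points. The difference was at least 40 points in 865 runs, at least 60 points in 100 and at least 80 points in 16, of which 14 were higher in MEF-1 against 2 in MEF-2. The 7 lines of one family did not overlap the 7 of the other in 6323 called runs (86.4%) and in 22.3% of all runs tested. The 100 called runs nearest the threshold had differences of 20 to 20.1 points and the 100 nearest outside it had 19.9 to 20. The threshold therefore cuts a continuous range.

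Most differences were shifts between partial levels. Called runs higher in MEF-1 had a median level of 67.6% in MEF-1 against 36.6% in MEF-2, and those higher in MEF-2 had 35.2% in MEF-1 against 66.4% in MEF-2. A full change of state, from at least 90% in one family to under 10% in the other, was found in 10 runs, all of them methylated in MEF-1, and in 0 runs in the opposite direction. Runs that were intermediate in MEF-1 (40 to 60%) were called in 25.3% of cases. Runs under 10% in MEF-1 were called in 2.09% of cases and runs of 90% or more in 4.44%, and a run near either end of the scale can move by 20 points in 1 direction only.

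**Figure D1:**
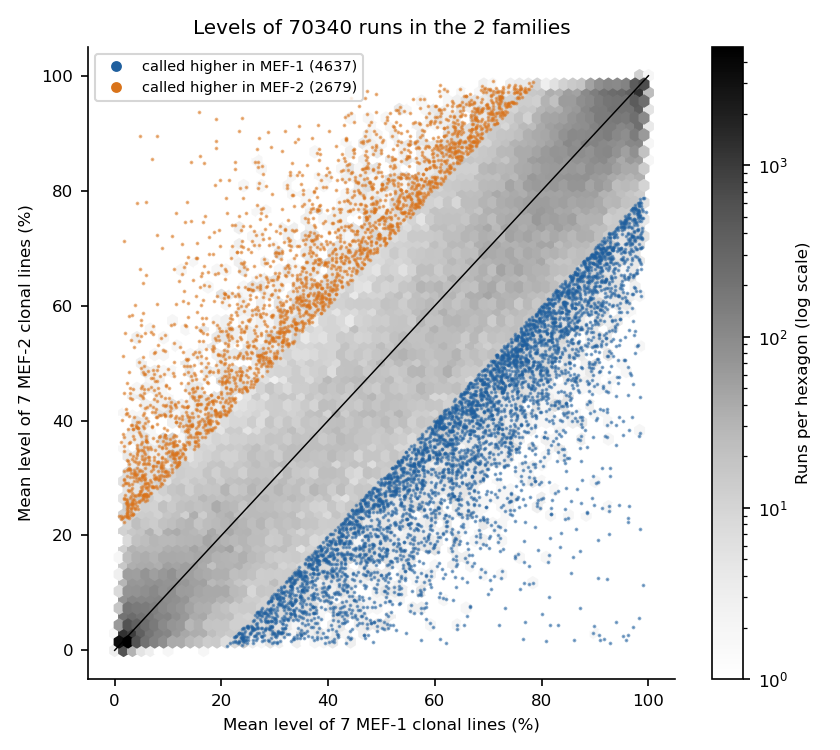
Mean methylation level of each of the 70340 runs in the 7 MEF-1 clonal lines (x axis, %) against the 7 MEF-2 clonal lines (y axis, %), with grey hexagons for the number of runs on a log scale and the black line for equal levels. Blue points are the 4637 runs called higher in MEF-1 and orange points the 2679 called higher in MEF-2, most of which lie between the ends of both axes.

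The parental cultures, which were sequenced once each and were not used for the calls, differed in the same direction as their clonal lines at 7286 of the 7316 called runs (99.6%), against 79.95% of all runs tested. The parental difference was itself at least 20 points in the same direction at 4649 called runs (63.5%) and at least 20 points in the opposite direction at 0. The median difference between the parental libraries was 23.5 points at runs called higher in MEF-1 and −21.9 points at runs called higher in MEF-2. Differences between the clonal families were thus largely present in the cultures they were taken from.

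Where a run lay was related to how often it was called. Intergenic runs were called in 13.5% of cases, runs in introns in 10.3%, runs in exons in 8.05% and runs in promoters in 6.83%. Runs of 5 to 9 CpGs were called in 13.3% of cases, those of 10 to 19 in 7.59%, those of 20 to 49 in 3.58% and those of 50 or more in 1.80%. With fewer than 3 CpGs per 100 bp the share was 12.5%, and with 8 or more it was 5.43%. Within 1 kb of a transcript start 6.52% of runs were called, and 12.5% were called between 1 and 5 kb from one. These splits were made separately and were not crossed. On single chromosomes the share called ranged from 8.68 to 11.5%. Runs of few CpGs also carry fewer reads, and the part of this in the shares was not tested.

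**Figure D2:**
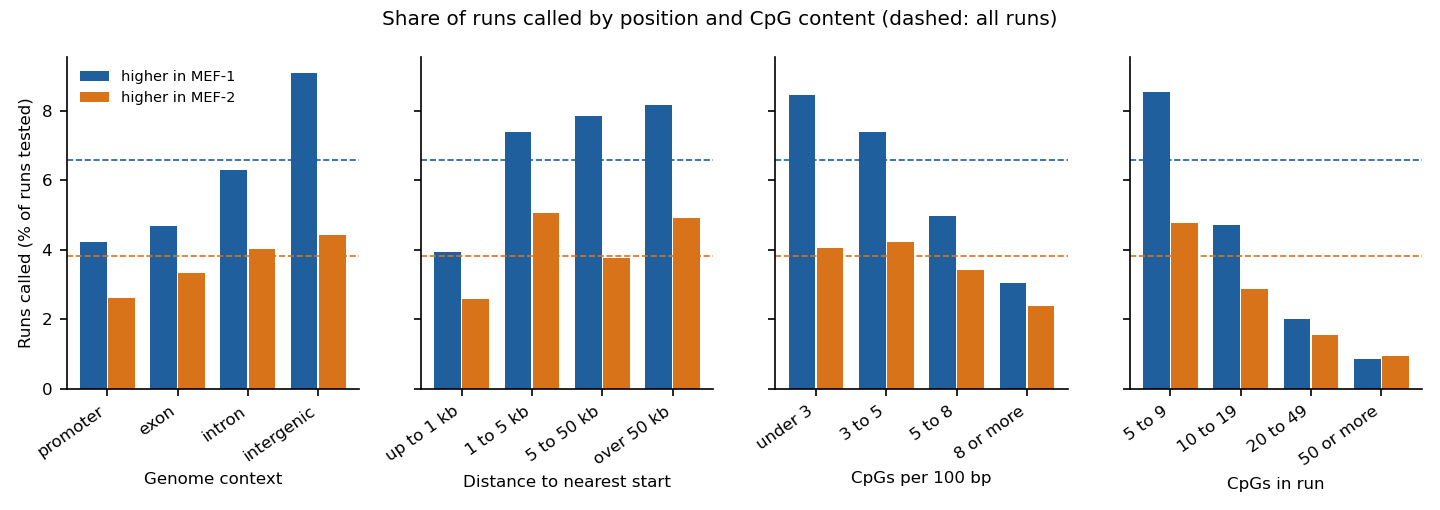
Percentage of tested runs called higher in MEF-1 (blue bars) and higher in MEF-2 (orange bars) by genome context, number of CpGs in the run, CpGs per 100 bp and distance to the nearest transcript start, with dashed lines at 6.59% and 3.81% for all runs. Both directions fall from sparse, intergenic runs to CpG-rich runs in promoters.

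The strongest single regions higher in MEF-1 included promoters and introns of genes of unlike function. At the promoter of Tmem267, which encodes a transmembrane protein (chr13:119487862-119488002, 10 CpGs, overlapping an exon of 3110070M22Rik), MEF-1 lines lay between 87.1 and 99.1% (median 98.5%) and MEF-2 lines between 0.756 and 3.62% (median 1.34%). The families were far apart, with a difference of 94.1 ± 2.13 points (SE, n = 7 lines each) and an adjusted p = 7.7e-14. In the intron of Ahi1, a gene for a protein of the ciliary base, MEF-1 lines lay between 95.0 and 97.6% (median 95.6%) and MEF-2 lines between 0.871 and 7.11% (median 1.85%), a difference of 93.3 ± 1.71 points (adjusted p = 6.6e-15). The parental libraries, over their pooled reads, stood at 97.0% (95% Wilson interval 95.4 to 98.1%) and 1.496% (0.688 to 3.23%) there. In the intergenic run nearest Gapvd1, a regulator of endocytosis, lines lay between 93.9 and 96.7% (median 95.2%) in MEF-1 and between 1.15 and 6.08% (median 1.53%) in MEF-2, a difference of 92.7 ± 1.69 points (adjusted p = 6.6e-15). In these 3 regions every MEF-2 line was nearly unmethylated and every MEF-1 line was above 90%, other than the 1 with 87.1% at Tmem267.

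With 1 run taken per gene, a further 7 runs made up the 10 largest in this direction, and further runs at Zic4, Runx1 and Tmem267 had differences above the smallest of these. An intergenic run nearest Mtap (chr4:89052038-89052144), a gene of methionine salvage, overlaps the noncoding gene Wincr1. It had 92.8 to 99.4% (median 98.2%) in MEF-1 lines and 0 to 14.3% (median 1.29%) in MEF-2 lines, a difference of 93.1 ± 2.46 points (adjusted p = 3.9e-13). The MEF-2 parental culture was above all MEF-2 clonal lines there, at 17.4% over its pooled reads (12.8 to 23.1%). In Runx1, the gene of a transcription factor of blood formation, an intronic run of 5 CpGs within 15 bp had 85.1 to 98.0% (median 94.2%) in MEF-1 lines and 2.16 to 8.05% (median 3.84%) in MEF-2 lines, a difference of 88.9 ± 2.23 points (adjusted p = 2.5e-13). The remaining runs, in or near Zic4, Hoxa6, Gstm5, Mllt3 and Cyp7b1, differed by 78.7 to 91.5 points. Gstm5 encodes a glutathione transferase and Cyp7b1, the gene nearest to a run far from any start, an oxysterol hydroxylase. No line of one family reached the range of the other in any of the 10.

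**Figure D3:**
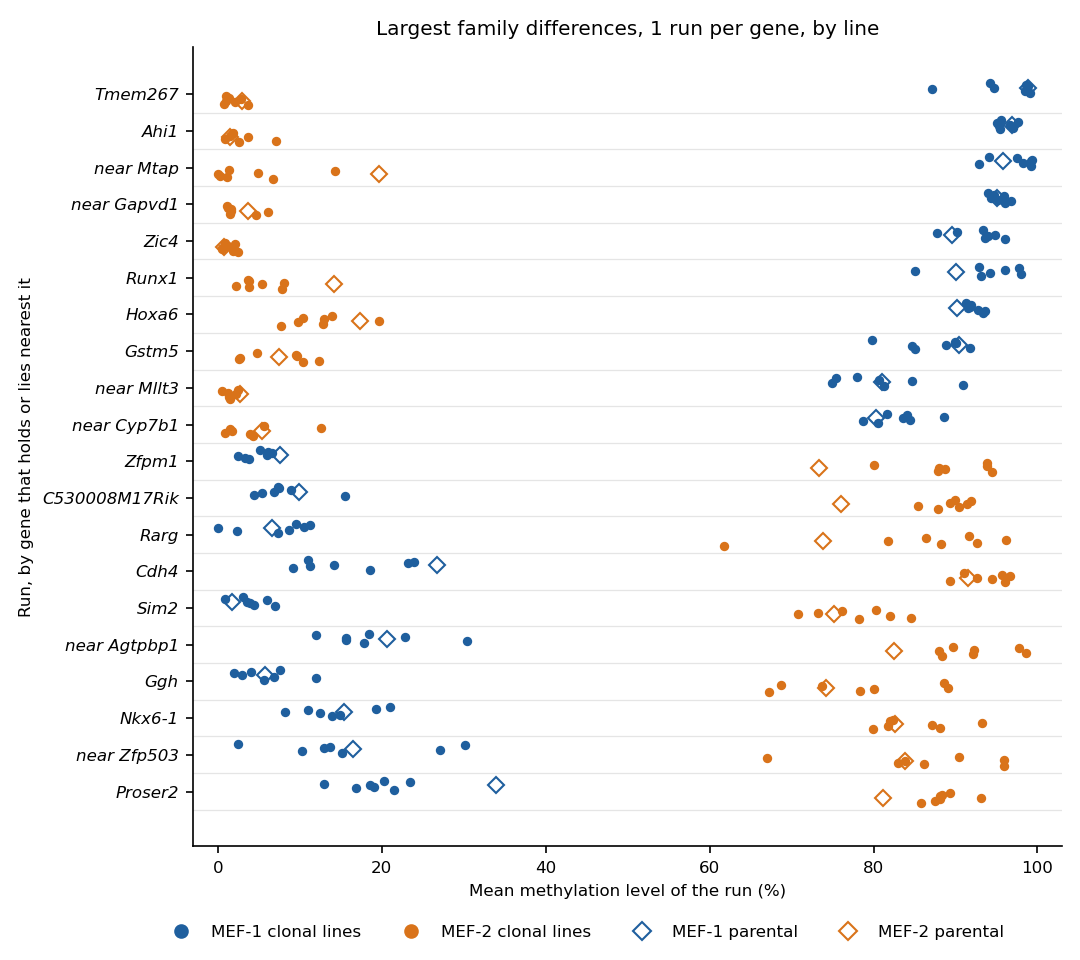
Mean level (x axis, %) of the 20 runs with the largest differences when 1 run is taken per gene, 10 in each direction, with a filled circle for each clonal line (7 per family, MEF-1 blue and MEF-2 orange) and an open diamond for each parental library. In every row the 2 families occupy separate ranges, and rows are labelled by the gene that holds the run or lies nearest to it.

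In the opposite direction, the 3 largest differences lay in exons. In an exon of Zfpm1, a cofactor of GATA factors (chr8:122336216-122336350, 17 CpGs), MEF-1 lines lay between 2.43 and 6.59% (median 5.08%) and MEF-2 lines between 80.03 and 94.4% (median 88.8%), a difference of −84.8 ± 2.33 points (MEF-1 minus MEF-2, adjusted p = 6.2e-13). In an exon of C530008M17Rik, a gene named only by its clone (chr5:76857621-76857828), lines lay between 4.46 and 15.5% (median 7.30%) in MEF-1 and between 85.5 and 91.9% (median 89.97%) in MEF-2, a difference of −81.5 ± 2.07 points (adjusted p = 2.5e-13). In an exon of Rarg, which encodes retinoic acid receptor gamma (chr15:102243488-102243626), lines lay between 0 and 11.3% (median 8.63%) in MEF-1 and between 61.8 and 96.2% (median 88.2%) in MEF-2, a difference of −78.5 ± 4.34 points (adjusted p = 2.2e-09). The spread among MEF-2 lines at Rarg (SD 11.5 points) was the widest among these 10 runs, and the 2 families still did not overlap.

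The intronic runs printed above followed. In Cdh4, a cadherin of the nervous system and other tissues, lines lay between 9.13 and 23.9% (median 14.2%) in MEF-1 and between 89.3 and 96.7% (median 94.5%) in MEF-2, a difference of −77.8 ± 2.68 points (adjusted p = 1.2e-11). In Sim2, a developmental transcription factor, they lay between 0.855 and 6.95% (median 3.93%) in MEF-1 and between 70.8 and 84.5% (median 78.2%) in MEF-2, a difference of −73.8 ± 2.28 points (adjusted p = 2.7e-12). In Nkx6-1, a homeobox gene of the ventral neural tube and of pancreatic beta cells, they lay between 8.17 and 20.9% (median 13.9%) in MEF-1 and between 79.9 and 93.3% (median 82.4%) in MEF-2, a difference of −70.6 ± 2.64 points (adjusted p = 3e-11). The families did not overlap at any of these, nor at the runs in or near Agtpbp1, Ggh, Zfp503 and Proser2, where differences were −73.4, −72.1, −70.1 and −69.7 points. The MEF-1 parental culture, over its pooled reads, stood above all its clonal lines at Cdh4 (29.2%, interval 24.6 to 34.2%) and at Proser2 (31.5%, interval 28.7 to 34.4%). The line levels are means over CpGs, an unlike measure.

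Promoter windows, taken as the 1000 bp before each transcript start with overlapping windows of a gene joined, were called less often than runs with the minimum of 20 points. Of 11722 windows 559 were called (4.77%), 353 higher in MEF-1 (3.01%) and 206 higher in MEF-2 (1.76%), and with medians set equal these were 339 and 220. The median promoter was nearly unmethylated, at 8.95% in MEF-1 against 8.44% in MEF-2. Called windows were of another kind, with median levels of 55.5 and 25.2% where MEF-1 was higher and of 25.2 and 54.0% where MEF-2 was higher, and they held a median of 9 and 8 CpGs against 16 over all windows. Only 9 windows differed by 60 points or more, 7 of them higher in MEF-1. All 559 differed in the same direction between the parental libraries, against 79.0% of all windows.

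Promoters higher in MEF-1 included those of lineage regulators and of an adhesion gene. The largest difference lay at a promoter of Zic4, a zinc finger factor of the developing cerebellum (chr9:91377642-91378641, 9 CpGs), where MEF-1 lines lay between 88.5 and 95.8% (median 90.6%) and MEF-2 lines between 0.337 and 3.23% (median 1.26%). This was a difference of 90.03 ± 1.41 points (adjusted p = 7.5e-16). At Cdh11, a cadherin of mesenchymal cells and bone (chr8:102785643-102786642, 6 CpGs), lines lay between 80.1 and 89.1% (median 86.1%) in MEF-1 and between 0.617 and 4.08% (median 2.68%) in MEF-2, a difference of 82.7 ± 1.48 points (adjusted p = 3.4e-15). At an internal promoter of Runx1 (chr16:92697329-92698328, 15 CpGs), lines lay between 76.9 and 81.6% (median 79.1%) in MEF-1 and between 0.796 and 3.51% (median 2.70%) in MEF-2, a difference of 77.0 ± 1.14 points (adjusted p = 6e-16). The MEF-1 parental library, over its pooled reads, stood at 71.4% (65.4 to 76.8%) at Cdh11, below each of its 7 clonal lines, and at 84.4% (80.6 to 87.6%) at Runx1.

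At an internal promoter of Hoxb3, a gene of hindbrain and trunk position (chr11:96327062-96328061), MEF-1 lines lay between 85.7 and 96.7% (median 95.1%) and MEF-2 lines between 15.6 and 38.03% (median 24.6%), a difference of 68.3 ± 2.96 points (adjusted p = 3.2e-10). Promoters of 1110004F10Rik, Synj2, a phosphoinositide phosphatase, Tmem267, Zfp345, a zinc finger gene, and 9230102O04Rik differed by 54.5 to 71.3 points. Each of these 9 windows had separate families. So did 322 of the 353 windows called higher in MEF-1, and 2700 of all 11722 windows.

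Promoters higher in MEF-2 included those of 3 genes of metabolism. At Ggh, which encodes the gamma-glutamyl hydrolase of folate turnover (chr4:20041052-20042051, 5 CpGs), MEF-1 lines lay between 1.91 and 12.0% (median 5.63%) and MEF-2 lines between 67.3 and 89.1% (median 78.3%), a difference of −72.1 ± 3.32 points (adjusted p = 5.8e-10). At Nadk, the gene of NAD kinase (chr4:155561378-155562377), lines lay between 20.1 and 36.0% (median 32.5%) in MEF-1 and between 79.6 and 93.0% (median 84.1%) in MEF-2, a difference of −53.4 ± 2.64 points (adjusted p = 1.3e-09). At Bdh1, a ketone body dehydrogenase (chr16:31421280-31422279), lines lay between 4.85 and 19.7% (median 11.02%) in MEF-1 and between 48.4 and 70.6% (median 65.8%) in MEF-2, a difference of −50.0 ± 3.55 points (adjusted p = 3.8e-08). These 3 windows held 5 to 7 CpGs each, so their levels rest on few positions.

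At Stc2, which encodes the secreted glycoprotein stanniocalcin 2 (chr11:31370075-31371074), lines lay between 25.7 and 41.5% (median 31.8%) in MEF-1 and between 74.2 and 89.3% (median 83.7%) in MEF-2, a difference of −50.0 ± 2.78 points (adjusted p = 3.3e-09). At Zfp503, a zinc finger repressor of forebrain and limb development (chr14:21989602-21990601, 16 CpGs), lines lay between 1.96 and 5.90% (median 3.83%) in MEF-1 and between 39.5 and 59.9% (median 51.3%) in MEF-2, a difference of −46.2 ± 2.78 points (adjusted p = 6.4e-09). Promoters of Gm5148, Susd3, Tbccd1, Atf7ip, a partner of a histone methyltransferase, and Sptbn1, a beta-spectrin of the membrane skeleton, differed by −62.3, −55.7, −49.7, −48.9 and −48.5 points. No line of one family lay within the range of the other at any of these windows. This held at 189 of the 206 windows called higher in MEF-2, and families were separate at 2700 of all 11722. The 2 parental libraries, over their pooled reads, were closer at Sptbn1, at 21.7% (17.5 to 26.6%) and 34.6% (29.7 to 39.9%), than the clonal lines were.

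With the minimum of 20 points gene bodies were called least often, whereas the adjusted p alone was passed by 56.3% of bodies, 48.0% of runs and 47.2% of promoter windows. Of 13362 bodies 381 were called (2.85%), with 271 higher in MEF-1 (2.03%) and 110 higher in MEF-2 (0.823%), a share of 71.1% higher in MEF-1 that fell to 58.7% (202 and 142) with medians set equal. A body is an average over many CpGs (median 33), and the called bodies held fewer (median 11 in both directions). Hoxa6, a gene of trunk position (chr6:52206288-52208722, 46 CpGs), had 71.1 to 78.4% (median 73.8%) in MEF-1 lines and 8.69 to 14.5% (median 11.9%) in MEF-2 lines, a difference of 62.6 ± 1.22 points (adjusted p = 2.1e-13). Larger still was 9230102O04Rik (chr2:9883042-9883993), with 73.7 to 84.7% (median 80.3%) in MEF-1 lines and 8.27 to 18.5% (median 11.9%) in MEF-2 lines, a difference of 66.9 ± 1.86 points (adjusted p = 6.2e-12). This transcript and its neighbour 4930412O13Rik (58.4 ± 2.37 points) overlap each other and Gata3, the gene of a transcription factor of T cells and several epithelia, and share measured CpGs with it. The body of Gata3, over 207 CpGs, differed by 21.5 ± 1.05 points (adjusted p = 1.8e-09), and was no longer called with medians or with means set equal.

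BC048507 and Cytl1, a gene for a small secreted protein, completed the 5 largest in this direction, at 57.9 and 54.8 points. Higher in MEF-2 was Nkx6-1 (chr5:101658139-101664996, 74 CpGs), with 22.9 to 38.1% (median 27.1%) in MEF-1 lines and 77.5 to 82.9% (median 79.7%) in MEF-2 lines, a difference of −51.6 ± 1.82 points (adjusted p = 9.4e-11). Fbxo2, which encodes a subunit of a ubiquitin ligase for glycoproteins, had 2.14 to 9.003% (median 3.06%) in MEF-1 lines and 52.1 to 73.8% (median 68.6%) in MEF-2 lines, a difference of −60.3 ± 3.13 points over 8 CpGs (adjusted p = 3e-09). 1600002K03Rik, Smg5, a factor of nonsense-mediated decay, and Fsbp, which shares exons with Rad54b, differed by −63.5, −47.8 and −47.8 points. The families were separate in all of these bodies. They were also separate in 252 of the 271 bodies called higher in MEF-1 and in 106 of the 110 called higher in MEF-2. Over all 13362 bodies this held in 3863.

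A called promoter was mostly not joined by a called body, although more often than over all pairs. Of 10596 pairs of a promoter window and the body of the same gene, 508 had a called promoter, and in 32 of these, from 31 genes, the body was called too (6.30%, against 1.96% of bodies over all pairs). In 22 of the 32 the window overlapped the span of the body. CpGs inside promoter windows were left out of bodies, so no CpG counted in both. Both moved in the same direction in 25 pairs, among them both promoters of Zic4 and the promoter and body of Irf7, the interferon regulatory factor. In the remaining 7 pairs, those of Hapln4, Cd68, Lhx9, Tcn2, Fmo4, Psd4 and Prss27, they moved in opposite directions. At Lhx9, a LIM homeobox gene of limb and gonad, the promoter level was 30.96% in MEF-1 against 6.35% in MEF-2 and the body level was 31.4 and 55.2%. At Cd68, a macrophage glycoprotein gene, the promoter level was 25.0 and 51.4% and the body level 97.7 and 76.3%, and the lines of the families overlapped at its promoter.

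Gene functions were described with 52 lists of genes, which overlap in part (Zic4 and Lhx9 are also in the list of limb and trunk position genes). They are set beside all protein-coding genes, where 2627 of 48232 runs in promoters or transcripts were higher in MEF-1 and 1701 higher in MEF-2 (8.97% called). With medians set equal these were 1660 and 2711 and with means set equal 2233 and 2014, so the majority over all genes turned with medians set equal too. Some lists of patterning factors had larger shares and others did not. Of 152 runs of Hox genes 26 were higher in MEF-1 against 8 in MEF-2 (22.4%), and with medians set equal 20 and 10. Pax genes had 14 and 2 of 55 runs (29.1%, then 10 and 6), Zic genes 6 and 2 of 19 (42.1%, then 6 and 2) and Nkx genes 7 and 5 of 40 (30.0%, then 6 and 6). LIM homeobox genes had 13 and 3 of 94 (17.02%, then 10 and 7), while genes of the Iroquois and sine oculis homeobox families had 0 and 6 of 49 (12.2%, then 0 and 7). Sox genes had 5 and 3 of 79 (10.1%, then 5 and 4) and basic helix-loop-helix genes of lineage choice 2 and 2 of 66 (6.06%, then 1 and 2). The median difference over the runs was 0.875 points for Hox genes, 4.41 points for Pax genes and 2.12 points for LIM homeobox genes, against 0.485 over all genes.

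Regulators of endoderm lineages had 15 and 9 of 107 runs called (22.4%, then 12 and 12). Among the signalling and surface lists, Wnt ligands had 12 and 4 of 91 (17.6%, then 8 and 7), integrins and laminins 23 and 5 of 158 (17.7%, then 15 and 11), sodium and calcium channels 24 and 9 of 206 (16.02%, then 15 and 15) and cadherins and protocadherins 6 and 11 of 128 (13.3%, then 4 and 18). Genes of cytochromes P450 and glutathione transferases had 13 and 8 of 118 (17.8%, then 6 and 11, and with means set equal 10 and 9). Solute carriers had 69 and 47 of 1083 (then 44 and 74, and with means set equal 61 and 54) and potassium channels 18 and 16 of 279 (then 8 and 24, and with means set equal 13 and 20). The majority thus turned with medians set equal in all 3 lists and with means set equal in potassium channels only, and the last 2 lists were near the share of all genes, at 10.7 and 12.2%.

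Several lists of genes that nearly every cell uses had smaller shares. Histone genes had 2 and 1 of 113 runs (2.65%, then 1 and 1), ribosomal protein genes 4 and 5 of 189 (4.76%, then 3 and 8), cell cycle and senescence genes 4 and 5 of 188 (4.79%, then 3 and 12) and enzymes of DNA methylation and chromatin 3 and 5 of 165 (4.85%, then 2 and 7). Fox genes, although they encode developmental factors, had 5 and 3 of 177 (4.52%), and 4 and 6 with medians and 4 and 5 with means set equal. Imprinted genes, in which methylation depends on the parent of origin, had 19 and 9 of 247 (11.3%, then 13 and 16), close to all genes. Their 46 promoter windows held 0 calls higher in MEF-1 and 3 higher in MEF-2 (6.52%, against 4.77% of all windows). Of these, the call at Inpp5f was lost with reads pooled over CpGs, at −17.5 points. That at Gatm, where the families overlapped, was lost without some single lines and without MEF-1 lines 1, 4 and 5 (−18.4 points). The markers of fibroblasts had 1 and 4 of 61 runs (8.20%). In the lists not named here, the share called lay between 6.00% (zinc finger Zfp genes) and 16.01% (limb and trunk position genes).

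**Figure D4:**
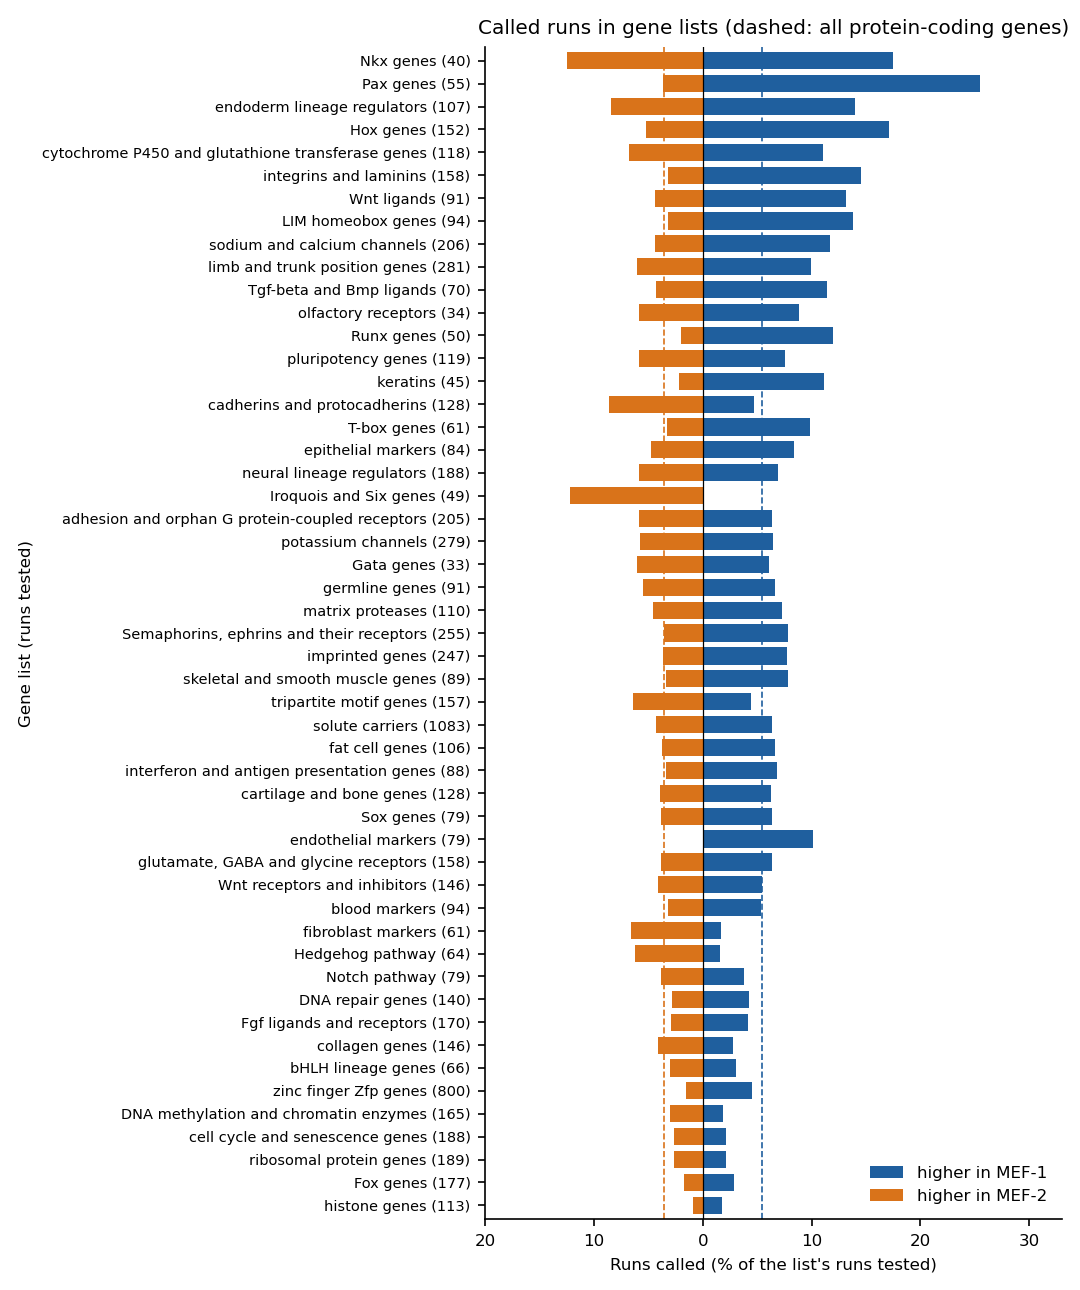
Percentage of the tested runs of each gene list that were called higher in MEF-1 (blue, to the right) and higher in MEF-2 (orange, to the left), with the number of runs tested in parentheses and dashed lines for all protein-coding genes. Of the lists drawn, Nkx, Pax and Hox genes and regulators of endoderm lineages had the highest shares, and histone genes were among the lowest. Lists with few tested runs, such as Zic genes (19 runs), are not drawn.

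Within the lists, promoters and bodies of single genes carried large differences. Runs of signalling genes were called in 17.6% of cases for Wnt ligands and 15.7% for Tgf-beta and Bmp ligands. For Fgf ligands and receptors the share was 7.06% and for the Notch pathway 7.59%, against 8.97% for all genes. Of single genes, the bodies of Wnt6 and Fgf5, which encode secreted ligands, were higher in MEF-1. Wnt6 had 56.8 to 58.7% (median 57.5%) in MEF-1 lines and 19.2 to 25.0% (median 21.8%) in MEF-2 lines, a difference of 35.7 ± 0.771 points over 126 CpGs (adjusted p = 3.5e-13). Fgf5 had 57.3 to 65.2% (median 62.2%) and 15.6 to 25.2% (median 22.5%), a difference of 39.7 ± 1.54 points (adjusted p = 2.2e-10). The promoter of Bmp6, a ligand of bone and iron metabolism, had 60.7 to 76.1% (median 64.1%) in MEF-1 lines and 24.5 to 38.8% (median 31.1%) in MEF-2 lines, a difference of 34.2 ± 2.76 points (adjusted p = 1.3e-07). In contrast, the receptor gene Fgfr2 and the ligand gene Fgf9 were higher in MEF-2 at promoters, by −21.1 and −23.5 points, and so was the promoter of the receptor gene Notch1, by −23.9 points. The call at Fgfr2 was lost with reads pooled over CpGs, at −19.6 points.

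Pdgfra, the platelet-derived growth factor receptor that is widely used as a marker of fibroblasts, was the 1 gene of the fibroblast list with a called window, among 11 windows (9.09%, against 4.77% of all windows). Of the 61 runs of the list, 1 was called higher in MEF-1 and 4 higher in MEF-2. The promoter of Pdgfra (32 CpGs) had 42.9 to 46.5% (median 44.8%) in MEF-1 lines and 2.00 to 5.08% (median 2.42%) in MEF-2 lines, a difference of 41.8 ± 0.907 points (adjusted p = 4.6e-14). Both families were tightly grouped there, and the parental libraries had 50.8 and 17.2%.

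Genes of interferon responses and antigen presentation had 4 promoters higher in MEF-1 and 0 higher in MEF-2 of 26 (15.4%, against 4.77% of all windows). The counts were the same with medians set equal and were 3 and 0 with means set equal, and 6 and 3 of the 88 runs of the list were called (10.2%, against 8.97% for all genes). With medians set equal these runs were 4 and 5 and with means set equal 5 and 5. The promoter of Irf7 had 34.1 to 44.9% (median 37.1%) in MEF-1 lines and 9.88 to 14.3% (median 10.7%) in MEF-2 lines, a difference of 26.7 ± 1.64 points (adjusted p = 8.1e-09). That of Isg20, an interferon-induced exonuclease, differed by 38.7 ± 3.85 points (adjusted p = 1.1e-06), and that of Irf5 by 24.0 ± 1.61 points (adjusted p = 2.1e-08) or 18.8 points, under the threshold, with reads pooled over CpGs. In this list the median difference over the promoters was 1.59 points, against 0.443 over all windows.

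Genes of mesenchymal fates had shares of called runs near the 8.97% of all genes, at 10.4% for fat cell genes, 10.2% for cartilage and bone genes and 11.2% for skeletal and smooth muscle genes. Promoter windows of fat cell genes were called in 0 and 2 of 16 cases (higher in MEF-1 and in MEF-2), those of cartilage and bone genes in 0 and 1 of 13 and those of skeletal and smooth muscle genes in 2 and 1 of 10 (4.77% over all windows), while their runs were called in 7 and 4 of 106, 8 and 5 of 128 and 7 and 3 of 89 (with medians set equal 5 and 5, 8 and 7, and 2 and 7). The promoter of Lpl, the lipoprotein lipase of fat and muscle, had 2.83 to 16.9% (median 5.26%) in MEF-1 lines and 27.7 to 45.9% (median 37.1%) in MEF-2 lines, a difference of −28.8 ± 2.99 points (adjusted p = 1.7e-06). Ebf2, a regulator of brown fat, and Mef2c, a regulator of muscle, differed at promoters by −25.6 ± 1.69 and −34.6 ± 4.22 points. The promoter of Spp1, which encodes the bone protein osteopontin, differed by −21.2 ± 1.67 points. The body of Cebpa, a regulator of fat cells, went the other way, at 33.8% in MEF-1 against 8.83% in MEF-2. So did the promoter of Pax7, a regulator of muscle stem cells, with 34.0 to 55.4% (median 47.3%) in MEF-1 lines and 1.15 to 7.05% (median 3.90%) in MEF-2 lines, a difference of 43.4 ± 2.68 points (adjusted p = 8.4e-09). The promoter of the smooth muscle cofactor gene Myocd had overlapping families, with 36.7 to 81.2% in MEF-1 lines and 26.9 to 51.4% in MEF-2 lines, and its difference of 20.02 points was 15.7 to 19.6 points and no longer called without any 1 of MEF-1 lines 2, 3 and 6 and MEF-2 lines 1, 3, 4 and 5.

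The list of cell cycle and senescence genes had 1 and 1 called promoters of 41, and that of DNA repair genes 0 and 1 of 50. These shares, 4.88 and 2.00%, were near and below the 4.77% of all windows, and the members are given as single values. Ccnd1, the gene of cyclin D1, had 7.74 to 15.1% (median 9.86%) in MEF-1 lines and 23.4 to 49.4% (median 35.2%) in MEF-2 lines, a difference of −24.5 ± 2.98 points (adjusted p = 7.9e-06). Ccne1, the gene of cyclin E1, had 46.5 to 61.9% (median 52.1%) and 23.6 to 32.7% (median 27.1%), a difference of 25.6 ± 2.46 points (adjusted p = 8e-07). Both sets of lines were separate and the cyclins differed in opposite directions. Mgmt, the gene of a DNA repair protein, had 5.57 to 15.9% and 24.3 to 35.9%, a difference of −20.5 ± 1.87 points that was −19.9 without MEF-1 line 3 and −19.5 without MEF-2 line 5, and then not called.

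The Hox clusters, inspected with other loci after their values had been seen, differed from each other. Of 67 runs in and around the Hoxb cluster, 16 were higher in MEF-1 against 6 in MEF-2 (32.8%, against 10.4% of all runs). Of 70 Hoxa runs these were 10 and 3 (18.6%), of 54 Hoxd runs 6 and 2 (14.8%), and of 52 Hoxc runs 1 and 0 (1.92%). These counts are as measured. Hoxa runs higher in MEF-1 by 20.2, 20.7, 20.8, 21.8, 21.8 and 23.3 points, most of the 10, are under 20 points with medians set equal. That setting took 4.31 points off every run. The direction changed along Hoxb, where a run near Hoxb9 was higher in MEF-2 (7.10 and 28.5%) and every called run from Hoxb7 to the internal promoter of Hoxb3 was higher in MEF-1. Runs in an exon of Hoxb3 farther along had 26.9 and 36.9% in MEF-1 and 89.2 and 89.1% in MEF-2, and the promoter run of Hoxb2 had 2.94 and 34.2%. The last 3 called runs, in or near Hoxb1, were higher in MEF-1 again, at 78.8 to 94.1% against 21.5 to 47.5%. At Hoxb5, 3 neighbouring runs had 64.1 to 85.5% in MEF-1 and 3.72 to 13.4% in MEF-2.

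The longest stretches of called runs, joined where at most 2000 bp lay between them, carried the names of genes of unlike function. A stretch is named by the gene that holds its runs or, for intergenic runs, has the nearest start at any distance. The longest higher in MEF-1 covered 6335 bp from Hoxa5 to Hoxa6 (chr6:52202413-52208747), with 4 runs, 187 CpGs and mean levels of 45.6 and 14.4%. Its runs at Hoxa5 differed by 20.2 and 21.8 points and are under 20 points with medians set equal, so its length holds as measured only. Next came 3666 bp named by Hoxb4 (69.3 and 29.9%) and 3116 bp named by Adam29, a metalloprotease-like gene of the testis (60.6 and 35.7%). Higher in MEF-2 were 3880 bp named by Nfe2l3, a stress-response transcription factor (15.6 and 50.4%). Next in this direction were 3695 bp named by Zfp503 (6.72 and 52.4%) and 3150 bp named by Stc2 (45.3 and 88.4%). Most called runs stood alone, since 4086 of 4348 stretches higher in MEF-1 and 2399 of 2530 higher in MEF-2 were a single run.

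At the adjacent genes Zic1 and Zic4, 10 of 16 runs were higher in MEF-1 and 1 was higher in MEF-2 (68.8%, against 10.4% of all runs). The change was not continuous along the locus. An intronic run of Zic4 with 29 CpGs had 86.0 ± 3.12% in MEF-1 against 1.82 ± 0.997% in MEF-2 (SD, n = 7 lines each), and an exonic run with 47 CpGs had 91.7 ± 1.16% and 2.02 ± 0.801%. Among the called runs lay others, of 16, 55 and 9 CpGs, that stayed at 1.28 to 1.90% in MEF-1 and 1.06 to 1.30% in MEF-2. The last exonic run to be called had 57.2 ± 3.57% in MEF-1 against 94.4 ± 4.00% in MEF-2.

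Among the loci inspected, homeobox genes with most calls in the opposite direction were Nkx6-1, with 4 of 8 runs higher in MEF-2 and 1 higher in MEF-1, Nkx3-2, a gene of axial skeleton formation, with 4 of 7, and Gbx2, a gene of the midbrain and hindbrain boundary, with 3 of 21. The shares called were 62.5, 57.1 and 14.3%, against 10.4% of all runs, and that of Gbx2 was near it. At Nkx3-2 the called runs were nearly unmethylated in MEF-1 (1.58 to 2.35%) and partly methylated in MEF-2 (23.1 to 51.2%). Zfp503 had 4 of 12 runs higher in MEF-2, with 3.47 to 23.3% in MEF-1 and 38.4 to 90.3% in MEF-2. The body of the nuclear receptor gene Nr2f1 had 1.39 to 3.98% (median 2.80%) in MEF-1 lines and 32.1 to 48.9% (median 40.1%) in MEF-2 lines, a difference of −37.2 ± 2.12 points (adjusted p = 6.9e-09). Of its 11 runs, however, 1 was called and the median run differed by 0.949 points. At Lmx1a, a LIM homeobox gene of dopamine neurons and roof plate, an intronic run of 33 CpGs had 81.3% in MEF-1 against 9.31% in MEF-2.

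**Figure D5:**
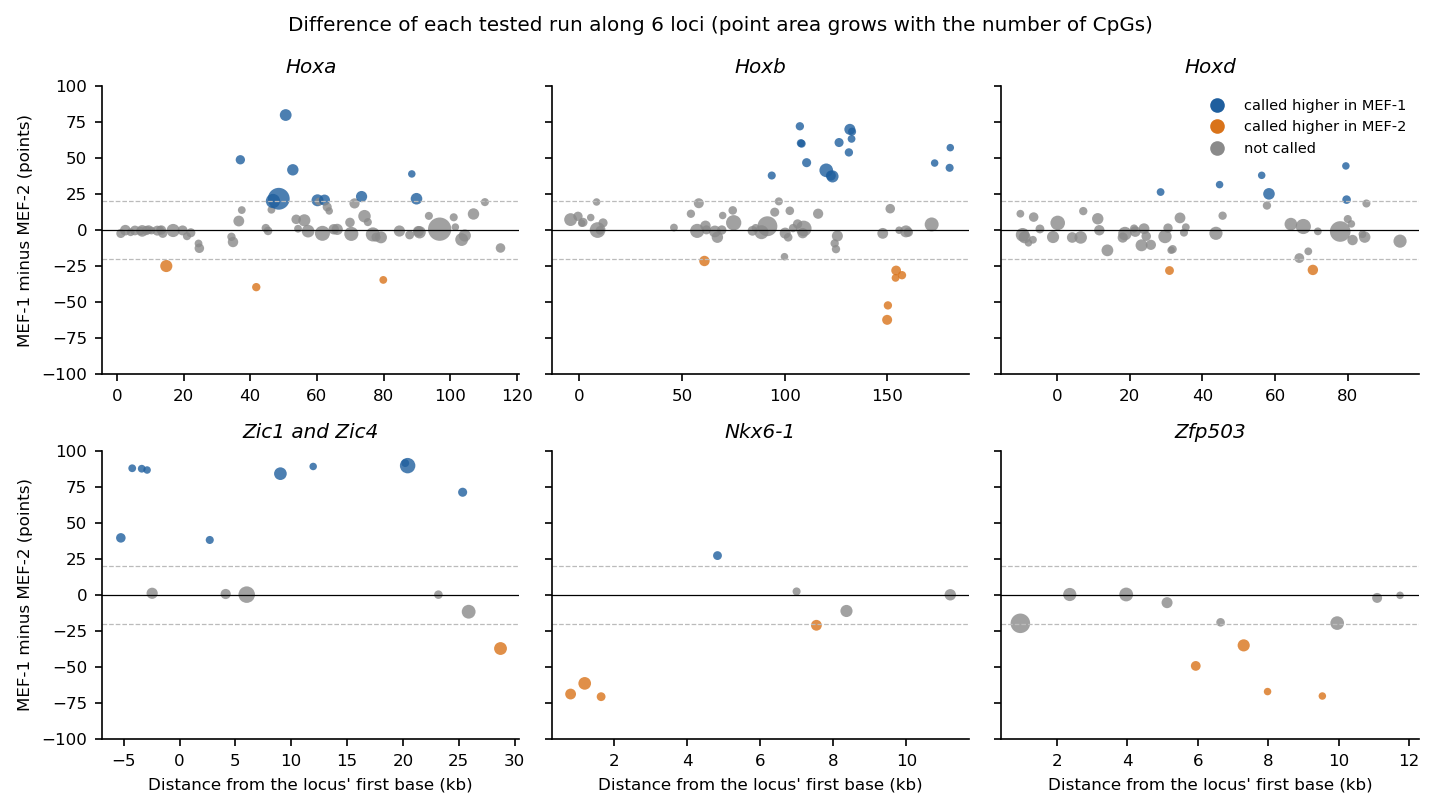
Difference of the mean level (MEF-1 minus MEF-2, percentage points, y axis) of each tested run against its distance from the first base of the locus (kb, x axis) at 6 loci, with blue for runs called higher in MEF-1, orange for runs called higher in MEF-2 and grey for runs not called. Point area grows with the number of CpGs and dashed lines mark 20 points in both directions. As measured, with no centring of the lines, calls higher in MEF-1 dominate Hoxa, Hoxb and the Zic genes, and calls higher in MEF-2 dominate Nkx6-1 and Zfp503.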

How the data were processed

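tcBS-seq was analysed for the 14 clonal lines and, as a check, the 2 parental libraries. The authors trimmed reads with Trim Galore (version 0.6.0 per the processing notes), aligned them to mm10 with Bismark and kept those with a mapping quality of at least 10. The deposited series table holds counts of methylated and unmethylated reads per CpG for CpGs with at least 10 reads in every library, without normalization. Its 2 further columns of values per sample (coverage and methylated percentage) were not used. The same table leaves out chromosomes 12, 18, 19, X and Y.

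The level of a CpG was its methylated share of reads, and that of a run, promoter window or body the mean over its CpGs (at least 5). Genes came from GENCODE, with bodies from transcript start to end, without CpGs that lie in a promoter window of any protein-coding gene. Line levels in percentage points were compared with limma 3.58.1 (R 4.3.3, moderated with trend and robust settings, two-sided), Benjamini-Hochberg adjusted over all features of a kind. A difference of at least 20 points was also required. The fit was tested on simulated data. Intervals for parental libraries are 95% Wilson intervals of pooled reads and cover counting error only, since reads have no molecular identifiers. A parental value with such an interval is also of pooled reads, whereas line levels are means over CpGs, and these measures can differ.

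The members and lists were chosen with earlier results of these data known. Named are the 10 runs, 10 promoters and 5 bodies with the largest differences per direction (1 run or promoter per gene), up to 4 called windows or bodies per list, the 3 longest stretches per direction, and loci picked after their values were seen. Of these promoters, 1 is not reported here. Alternatives covered the test, scale, coverage, centring (setting the means of lines equal was added after seeing the data), threshold, lines, chromosomes and feature definitions. Line numbers did not pair the families.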

Additional observations from a re-analysis of the deposited data

Results flagged for a closer look

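In each named run, promoter or body, 1 line was flagged where its gap to the nearest line of its family exceeded Dixon's 95% critical share of the range of the 7 lines. This held in 25 of 316 groups (7.91%), where chance gives about 1 in 20. MEF-1 line 7 stood apart in 6 of them and each of MEF-2 lines 3 and 6 in 3, more than any other line.

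MEF-1 line 7 stood apart at the promoters of Nadk (20.1% against a family median of 32.5%, gap ratio 0.6437), Efna3 (55.6 against 49.5%, 0.6117) and Gbx2 (12.0 against 8.26%, 0.6003), and in the bodies of Nkx6-1 (38.1 against 27.1%, 0.5918), Inha (57.5 against 47.8%, 0.6012) and Cldn3 (37.3 against 29.5%, 0.6142). The largest ratios belonged to MEF-1 line 2, which was the lowest of its family in the bodies of Itgam (68.3 against 85.0%, ratio 0.7958) and Alb (68.1 against 72.0%, ratio 0.7699). Itgam encodes an integrin of myeloid cells and Alb serum albumin.

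Other MEF-1 lines were flagged at the run of Tmem267 (line 3, 87.1 against 98.5%, ratio 0.5972), the run of Runx1 (line 4, 85.1 against 94.2%, ratio 0.6021), the run of C530008M17Rik (line 1, 15.5 against 7.30%, ratio 0.5934) and the promoter of Notch1 (line 6, 43.6 against 35.8%, ratio 0.5766).

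MEF-2 line 3 was flagged at the promoters of Zfp982 (21.4 against 29.6%, ratio 0.5689), Kcnd3 (17.9 against 5.06%, ratio 0.5682) and Cacnb4 (45.1 against 66.6%, ratio 0.5691). MEF-2 line 6 was flagged at the run near Cyp7b1 (12.6 against 3.86%, ratio 0.5907), the body of Foxa2 (22.3 against 36.0%, ratio 0.6669) and the promoter of Rpl3 (52.7 against 34.9%, ratio 0.6155). MEF-2 line 5 stood above its family at the promoter of Hoxb3 (38.03 against 24.6%, ratio 0.5897) and in the body of BC048507 (43.3 against 28.0%, ratio 0.6645).

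MEF-2 line 7 stood apart in the body of Olfr1381, an olfactory receptor gene (29.9 against 57.7%, ratio 0.7011), and at the promoter of Myocd (51.4 against 32.9%, ratio 0.5927). MEF-2 lines 1, 2 and 4 were flagged at the run of Rarg (61.8 against 88.2%, ratio 0.5793), the promoter of Atf7ip (82.4 against 96.6%, ratio 0.5972) and the promoter of Col18a1 (38.1 against 16.1%, ratio 0.7406). The call at Olfr1381, with a difference of 20.8 points, was lost without MEF-2 line 7 (16.8 points), with pooled reads (18.96 points) and without MEF-1 lines 1, 4 and 5 (19.3 points).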

How the results depend on the processing

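Counts of called runs, promoters and bodies (7316, 559 and 381) stayed within 1.5 times under the exact permutation test, the quasi-binomial test, pooled reads, the logit scale, thinning to 10 reads, both centrings and the removal of MEF-1 lines 1, 4 and 5, and ranged from 7244 to 7405, 555 to 577 and 373 to 394 without 1 line. With at least 20 reads 3885 of 36254 runs were called (10.7%), and on chromosomes 3, 4, 6 and 9 1870 of 17601 (10.6%), close to the 10.4% of all runs. Promoters and bodies called on these chromosomes were 132 and 76. With at least 10 CpGs there were 1730, 236 and 224 calls, and with at least 3 CpGs per run 17023. The share of runs called moved with these CpG limits, to 6.10% with at least 10 CpGs and 14.1% with at least 3, and the cause was not tested. Without a minimum difference, at 10 points and at 30 points there were 33737, 19555 and 2572 runs, 5533, 1876 and 164 promoters and 7527, 1853 and 102 bodies. With line number as a replicate block 7314, 559 and 381 were called. The block kept 7313 of the 7316 runs and all 50 named features it was run on. The numbers are only names, and over runs no line correlated best with its own number.

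None of 158 named features reversed without any 1 line, with pooled reads or without MEF-1 lines 1, 4 and 5. The centrings are not among these settings, and with both of them the call at the body of Gata3 was lost. It was not the only one. With both centrings, bodies called higher in MEF-1 fell from 2 to 1 in Wnt ligands and from 3 to 2 in olfactory receptors. Calls were lost at 10 of 158 without some single line, 19 with pooled reads and 7 without MEF-1 lines 1, 4 and 5. Most had differences near 20 points, and the cause of the changes was not tested. How far depth limits single CpGs was not tested. The reads of a run of 5 CpGs come partly from the same molecules.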

Other observations

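Single genes of the germline and of the liver were among those called, although promoters of the germline list were called in 2 of 34 windows (5.88%) and those of the pluripotency list in 2 of 24 (8.33%), against 4.77% of all windows. The promoter of Ldhc, the lactate dehydrogenase of the testis, had 66.9 to 78.7% (median 72.8%) in MEF-1 lines and 16.6 to 35.3% (median 23.8%) in MEF-2 lines, a difference of 48.8 ± 2.72 points (SE, n = 7 lines each, limma adjusted p = 3.4e-09). The promoter of Prdm14, a regulator of primordial germ cells, had 3.67 to 12.6% (median 5.05%) in MEF-1 lines and 25.1 to 39.5% (median 33.2%) in MEF-2 lines, a difference of −26.4 ± 2.12 points (adjusted p = 1.3e-07). The body of Alb, the serum albumin gene of the liver, had 68.1 to 72.8% (median 72.0%) in MEF-1 lines and 43.1 to 51.2% (median 46.8%) in MEF-2 lines, a difference of 24.2 ± 1.16 points (adjusted p = 1.6e-09). The lines of the families did not overlap at any of these 3 genes.

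A pair of related Sox genes of blood and lymph vessels differed in opposite directions. The promoter of Sox18 had 47.1 to 54.4% (median 53.6%) in MEF-1 lines and 1.09 to 9.40% (median 1.43%) in MEF-2 lines, a difference of 48.4 ± 1.75 points (adjusted p = 3.5e-11), and that of Sox7 had 18.9 to 23.0% (median 20.7%) and 43.1 to 50.7% (median 48.2%), a difference of −26.4 ± 1.45 points (adjusted p = 2.8e-09). The glutathione transferase genes differed in both directions too. The body of Gstm5 had 72.9 to 88.9% in MEF-1 lines and 31.2 to 40.3% in MEF-2 lines, whereas the promoter of Gstt2 had 4.55 to 18.2% and 45.3 to 57.3%, with separate families in both.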
